A study of Homo sapiens with 6 samples.

Results

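The integrin and cadherin genes are described here in A549, a human lung adenocarcinoma cell line, after over-expression of the RNA-binding protein CELF6. Members were all protein-coding genes of the count table whose symbol is that of an integrin alpha subunit, an integrin beta subunit or a numbered cadherin (CDH). The rule uses names and no measured value, and it gave 46 of the 29889 genes in the table, namely 17 alpha subunits, 8 beta subunits and 21 cadherins. The families themselves were chosen with earlier results of these data known. A549 cells were transfected with a pIRES-hrGFP-1a plasmid carrying CELF6 (CELF6-OE, 3 libraries) or with the empty plasmid (Control, 3 libraries), using a cationic lipid reagent in each case, and were harvested 48 h later. Polyadenylated RNA was sequenced from 3 biological replicates per group. No sorting of transfected cells is described, so cells that took up the plasmid and cells that did not may have been measured together. CELF6 was at 0 counts in every Control library, which allows up to 3, against 18646, 20789 and 11571 for CELF6-OE replicates 1 to 3.

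Integrins are receptors made of 1 alpha and 1 beta subunit that hold the cell to the extracellular matrix or to other cells and pass signals through talin, kindlin and focal adhesion proteins. The alpha subunit largely sets the ligand, such as laminin, collagen or proteins with an arginine-glycine-aspartate motif, and some pairs are typical of leukocytes. Classical cadherins join neighbouring cells through calcium-dependent contacts of the same cadherin and are tied to actin by catenins. E-cadherin (CDH1) is the cadherin of epithelial adherens junctions, N-cadherin (CDH2) is typical of mesenchymal and neural cells, and the balance of the pair is a common readout of epithelial-mesenchymal transition.

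The total count per library lay between 33748328 and 37920700. Of the 46 members, 32 passed the filter on low counts and were tested, 30 of them with all 6 libraries over the filter's limit, and none passed through a single group. The epithelial markers KRT7, KRT8, KRT18, KRT19, EPCAM and CDH1 all had a mean FPKM (a level scaled for transcript length and library depth) over 1, and their summed FPKM was 6177 to 7029 in Control against 5041 to 5793 in CELF6-OE. For the fibroblast list the sum was 0.39 to 0.47 in Control against 0.25 to 0.34 in CELF6-OE, and for the endothelial list it was 0.04 to 0.07 against 0.01 to 0.03. The leukocyte list summed to 3.43 to 4.19 in Control against 3.51 to 4.82 in CELF6-OE, most of it from CD14. PTPRC, which marks leukocytes, had 2 counts in Control replicate 1 and 0 in the other libraries. PECAM1, of the endothelial list, had 11, 17 and 15 counts in Control against 3, 3 and 5 in CELF6-OE and passed the filter in Control libraries only. CDH1, CDH5, ITGAL and ITGB2 are themselves in these lists, and the part of other cell types in the results was not tested.

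Levels within each family were spread over several orders of magnitude. ITGB1, the common partner of most alpha subunits, had the highest FPKM, 203 ± 9.50 in CELF6-OE and 202 ± 34.1 in Control (mean ± SD, n = 3 each, as for the other means given here). ITGA3, the alpha subunit of a laminin receptor, came next at 106 ± 6.34 and 135 ± 12.2. It made up 71.0% of the summed FPKM of all alpha subunits in CELF6-OE and 75.2% in Control. ITGB5, a partner of ITGAV, had 59.1 ± 0.846 and 68.6 ± 1.11. The remaining beta subunit with an FPKM above 1 was ITGB4, a part of hemidesmosomes, and ITGB2, ITGB3, ITGB6, ITGB7 and ITGB8 stayed below it in every library. Among alpha subunits ITGA5, ITGA6, ITGAE, ITGAV and ITGA2 followed ITGA3, with mean FPKM values over all libraries of 18.7, 8.38, 6.20, 5.64 and 3.16. Of 23 known alpha and beta pairs with each subunit in the table, 7 had a mean FPKM of at least 1 for each subunit in Control, and 7 did so in CELF6-OE. These were ITGB1 with ITGA2, ITGA3, ITGA5, ITGA6 or ITGAV, ITGB4 with ITGA6, and ITGB5 with ITGAV.

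Cadherins were lower. Their summed FPKM was 12.2 ± 0.997 in CELF6-OE and 19.5 ± 0.962 in Control, and CDH1 made up 29.2% of it in CELF6-OE and 55.2% in Control. Only CDH1, CDH2, CDH24 and CDH17 reached an FPKM of 1 in any library. In all, 13 members reached it.

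**Figure D1:**
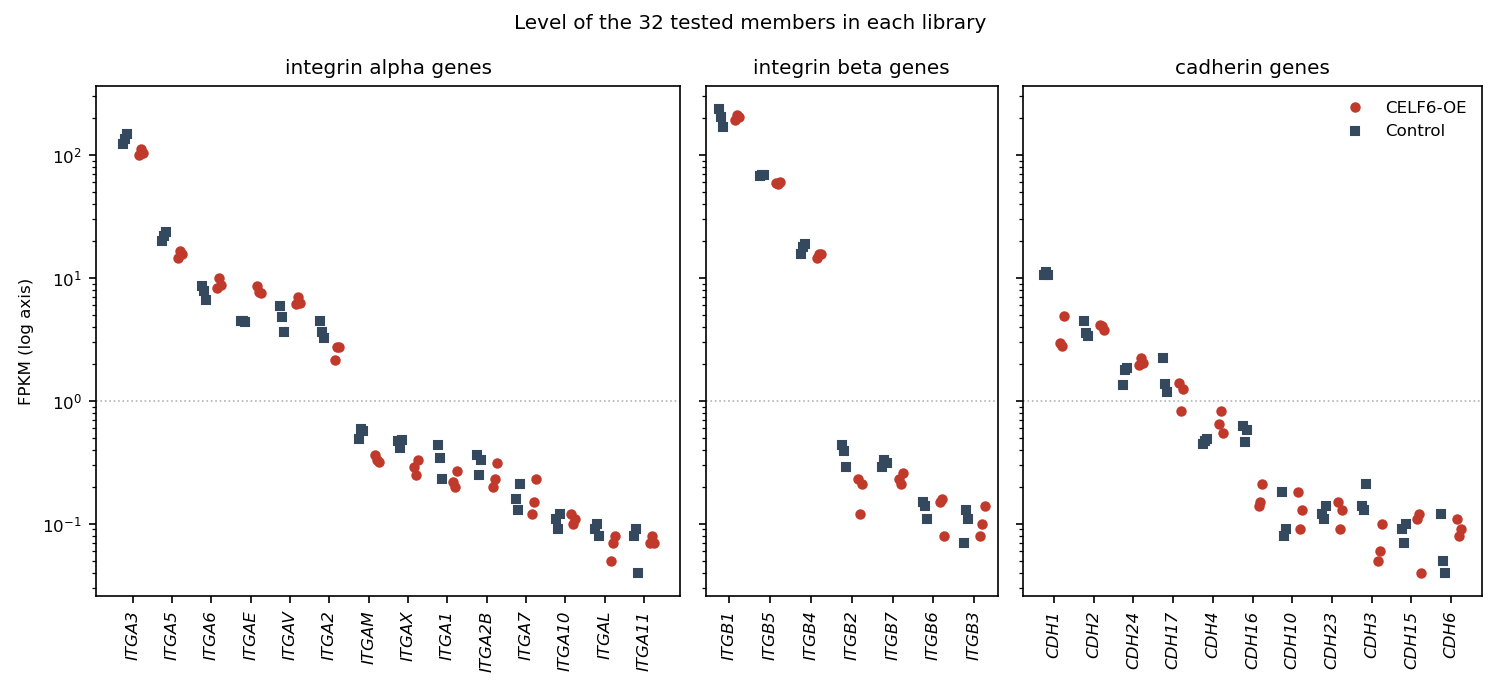
FPKM on a log axis of the 32 tested members in each library, with squares for the 3 Control and circles for the 3 CELF6-OE libraries and a dotted line at 1. ITGB1 and ITGA3 lie above 100 in every library, CDH1 is near 10 in Control and under 5 in CELF6-OE, and most members lie under 1.

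The question of the comparison is which transcripts CELF6 over-expression changed. Here "called" means a p under 0.01 with a fold change of at least 1.5 in edgeR's quasi-likelihood test, the threshold of the study's methods, and "rose" and "fell" are used for a Benjamini-Hochberg adjusted p under 0.05 over all 15847 genes tested. Among the 32 tested members 8 were called (25%), against 7.27% of all genes tested. Such shares are descriptive only, since the families and lists were chosen with earlier results of these data known. ITGAE was called up, which is 3.12% of the members against 1.36% of all genes. The count of 1 became 2 without CELF6-OE replicate 3, where CDH4 was added, and without Control replicate 1, where CDH6 was added, and the 216 of all genes called up became 348 without Control replicate 1. The 7 called down were CDH1, CDH16, CDH3, ITGB2, ITGAM, ITGAX and ITGA2, or 21.9% against 5.91%. All 8 also had an adjusted p under 0.05, and 7.17% of all genes passed that threshold with the same fold change. By family, 5 of 21 tested integrin genes and 3 of 11 tested cadherins were called. An adjusted p under 0.05 was found for 12 members (37.5%, against 18.0% of all genes), adding ITGA5, ITGA3 and ITGB5, which fell, and ITGAV, which rose, all by less than 1.5-fold. In this count 2 members rose (6.25%, against 6.47% of all genes) and 10 fell (31.2%, against 11.5%). The count of 12 was 7, 6 and 7 without CELF6-OE replicate 1, CELF6-OE replicate 2 and Control replicate 2. The median log2 fold change was -0.14 over the tested members and 0.01 over all genes tested. For 16 of the 32 members no library of one group lay within the range of the other, against 37.9% of all genes. Over the 32 tested members, CELF6-OE was above Control for 4 (12.5%, against 17.9% of all genes). It was below Control for 12 (37.5%, against 20.0%).

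**Figure D2:**
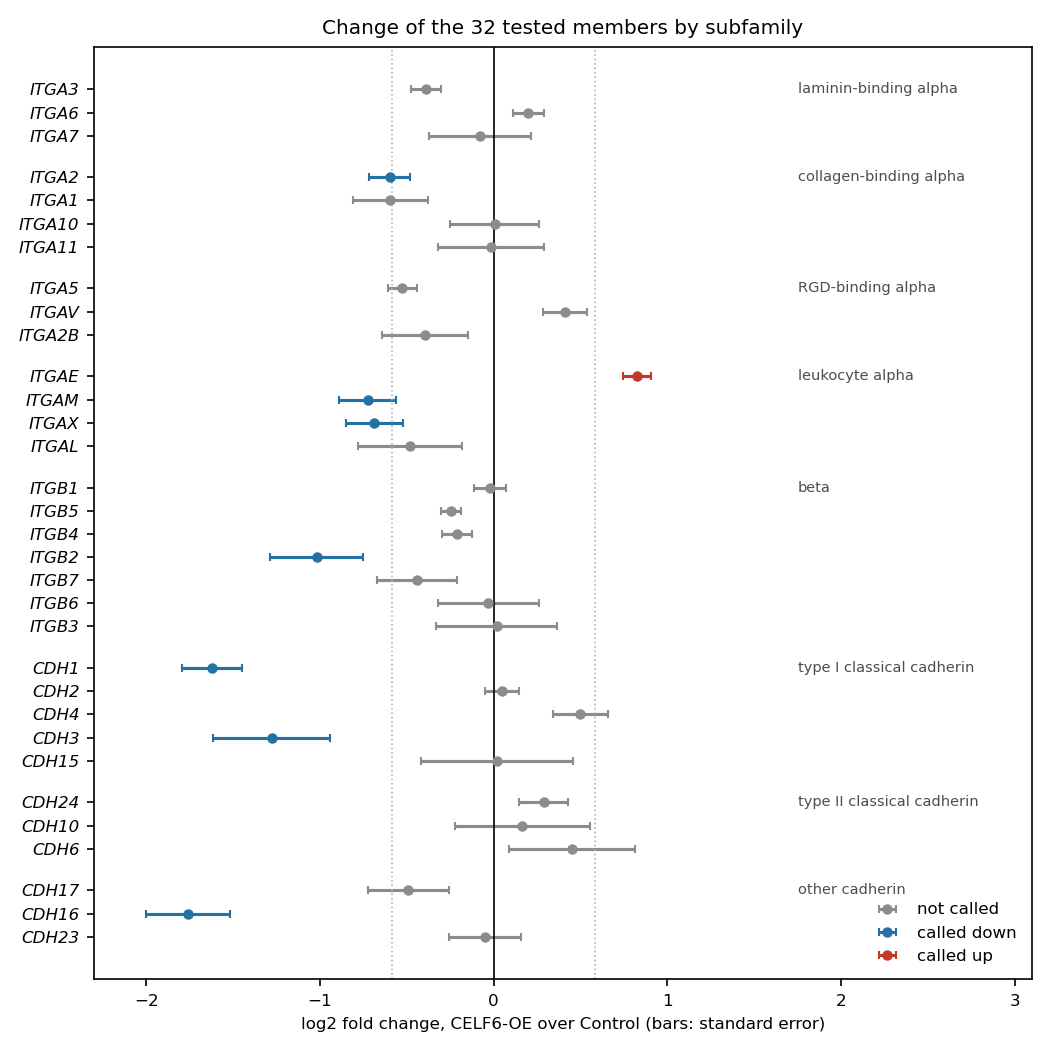
Log2 fold change of CELF6-OE over Control with its standard error for the 32 tested members, grouped by subfamily, with dotted lines at a fold change of 1.5 in each direction. CDH1, CDH3, CDH16 and ITGB2 lie furthest to the left with values from -1.02 to -1.76, and ITGAE lies furthest to the right at 0.83.

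CDH1, the E-cadherin gene, fell 3.08-fold. In replicates 1 to 3 the FPKM was 10.63, 11.22 and 10.49 for Control against 2.98, 2.80 and 4.95 for CELF6-OE. Every CELF6-OE library was below every Control library, and replicate 3, which also had the lowest CELF6 count of its group, was the highest of the CELF6-OE libraries. On the log2 scale it fell by 1.62 (standard error 0.17, adjusted p = 0.000105 in edgeR's quasi-likelihood test). The value lay between -1.93 and -1.47 over 17 alternative settings, all of which called it. In bulk RNA, fewer cells with E-cadherin and less of its RNA per cell cannot be told apart. CDH1 (ENSG00000039068) lies on the plus strand of chromosome 16 of GRCh38 from 68737292 to 68835537. On the same chromosome CDH3 (68636189 to 68727468), ITGAM (31259967 to 31332892) and ITGAX (31355134 to 31382999) are on the plus strand and CDH16 (66908122 to 66918917) is on the minus strand.

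For CDH2, the difference was within the spread between replicates. Its FPKM was 4.45, 3.59 and 3.38 in Control against 4.16, 4.08 and 3.80 in CELF6-OE, and the groups overlapped. A log2 fold change of 0.05 came with a 95% interval of -0.17 to 0.27 and an adjusted p of 0.758 in edgeR's quasi-likelihood test, and its sign turned without Control replicate 3 (-0.0098). The ratio of CDH1 to CDH2 in FPKM was 2.39, 3.13 and 3.1 in Control against 0.716, 0.686 and 1.30 in CELF6-OE. CDH1 was thus above CDH2 in every Control library and below it in CELF6-OE replicates 1 and 2.

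Of the other type I cadherins, CDH3 (P-cadherin, found in basal epithelial cells) fell at a low level. It had 27, 26 and 42 counts in Control against 9, 11 and 17 in CELF6-OE, and the groups did not overlap. Its log2 fold change was -1.28 (standard error 0.34, adjusted p = 0.0238 in edgeR's quasi-likelihood test). It was no longer called without CELF6-OE replicate 1 (-1.10), CELF6-OE replicate 2 (-1.18) or Control replicate 3 (-1.01). CDH4 (R-cadherin, first described in retina) had 124, 137 and 143 counts in Control against 174, 226 and 144 in CELF6-OE, which did not overlap once scaled for depth. Its log2 fold change was 0.50 with an adjusted p of 0.0504, and it was called without CELF6-OE replicate 3, at 0.62. CDH15, the muscle cadherin, had between 4 and 13 counts per library.

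CDH16, the kidney-specific or KSP cadherin, had the lowest log2 fold change of the tested members, -1.76 (standard error 0.24). It had 69, 53 and 68 counts in Control against 15, 16 and 22 in CELF6-OE, so that no CELF6-OE library reached a Control library, and its FPKM stayed under 1 throughout. With edgeR's quasi-likelihood test its adjusted p was 0.000592, and it was at most 0.00523 over the alternatives. CDH17, the liver-intestine cadherin, had FPKM values of 2.22, 1.37 and 1.18 in Control against 1.39, 0.82 and 1.24 in CELF6-OE. These overlapped, and the log2 fold change was -0.49 with a 95% interval of -1.01 to 0.03. CDH23, a cadherin of hair cell tip links, had 43 to 68 counts per library and a log2 fold change of -0.05.

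Of the 11 type II cadherins, 3 passed the filter on low counts. CDH24 had an FPKM of 2.07 ± 0.131 in CELF6-OE and 1.66 ± 0.269 in Control (log2 fold change 0.29, 95% interval -0.02 to 0.60). CDH6 and CDH10 had 11 to 39 counts per library and log2 fold changes of 0.45 and 0.17 with standard errors of 0.36 and 0.39. CDH6 was called up without Control replicate 1 (1.03). CDH5, the VE-cadherin of endothelium, had at most 2 counts in a library.

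**Figure D3:**
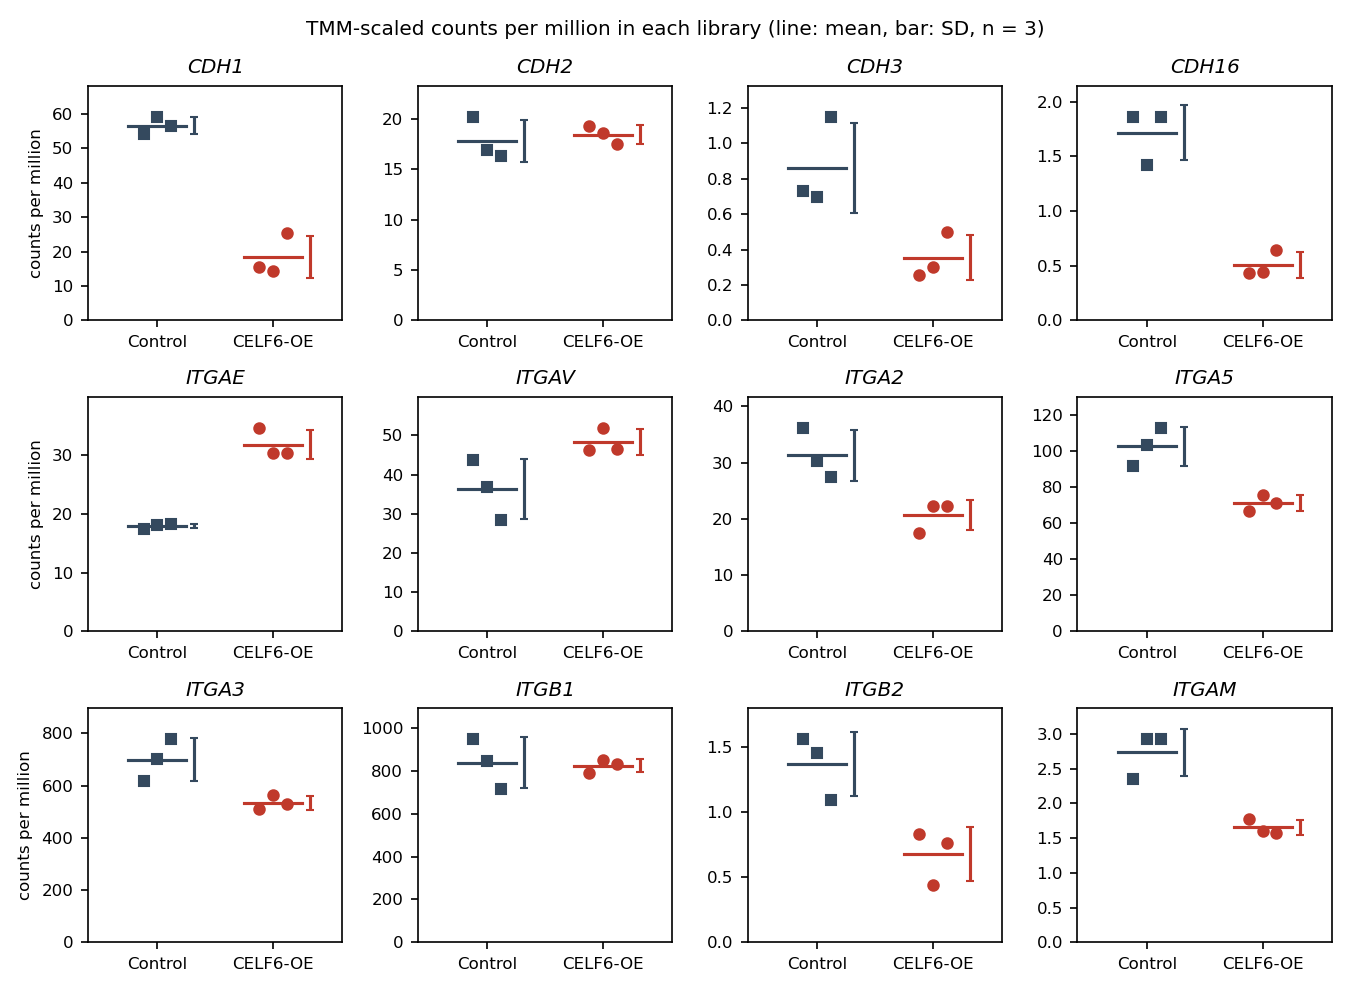
TMM-scaled abundance (CPM) in each library for 12 members, each panel starting at 0, with the mean as a line and the SD (n = 3) as a bar. CELF6-OE lies below Control without overlap for CDH1, CDH3, CDH16, ITGA2, ITGA5, ITGA3, ITGB2 and ITGAM, above it for ITGAE and ITGAV, and across it for CDH2 and ITGB1.

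ITGAE encodes the alpha E subunit (CD103), which pairs with beta 7 on intraepithelial T cells and binds E-cadherin. It rose 1.77-fold, with an FPKM of 4.43, 4.44 and 4.37 in Control against 8.64, 7.71 and 7.61 in CELF6-OE. The Control libraries were close together and all below the CELF6-OE libraries. Its log2 fold change was 0.83 (standard error 0.081, adjusted p = 6.28e-05 in edgeR's quasi-likelihood test) and lay between 0.76 and 0.86 over 17 alternatives, all of which called it. Its partner ITGB7 had an FPKM of 0.233 ± 0.0252 in CELF6-OE and 0.310 ± 0.0200 in Control, and its log2 fold change was -0.44 (95% interval -0.94 to 0.06). ITGB7 shares 1881 exon bases with ZNF740 on the other strand, which had 839 to 956 counts per library. Whether the counting used the strand is not stated, so the counts of ITGB7 are uncertain. ITGAE (ENSG00000083457) lies on the minus strand of chromosome 17 from 3714628 to 3801188. HASPIN lies inside it on the other strand and shares 427 exon bases with it. HASPIN had 435, 437 and 437 counts in Control against 476, 425 and 408 in CELF6-OE (log2 fold change 0.07). With the strand setting not stated, the counts of ITGAE are uncertain too.

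Sequences before the transcription start were matched for 27 of the 46 members, and among the called members for ITGAE, ITGA2 and ITGAM. They are shown to set the member that was called up beside those called down, with CpG dinucleotides in capitals. Each is the 250 bases before the start in RefSeq (GRCh38.p14), written 5′ to 3′ on the strand of the gene. ITGAE is at chr17:3801189-3801438, minus strand, ITGA2 at chr5:52989102-52989351, plus strand, and ITGAM at chr16:31259725-31259974, plus strand.
ITGAE: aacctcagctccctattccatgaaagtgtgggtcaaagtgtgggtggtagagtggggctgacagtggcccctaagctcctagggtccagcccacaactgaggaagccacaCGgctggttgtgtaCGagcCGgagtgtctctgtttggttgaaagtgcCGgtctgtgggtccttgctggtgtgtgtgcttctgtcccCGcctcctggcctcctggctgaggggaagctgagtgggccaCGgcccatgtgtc
ITGA2: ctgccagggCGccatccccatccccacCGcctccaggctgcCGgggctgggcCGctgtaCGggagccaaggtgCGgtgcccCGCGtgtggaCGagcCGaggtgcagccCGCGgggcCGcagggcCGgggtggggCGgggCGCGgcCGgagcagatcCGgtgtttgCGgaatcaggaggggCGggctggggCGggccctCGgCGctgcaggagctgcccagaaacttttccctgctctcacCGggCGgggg
ITGAM: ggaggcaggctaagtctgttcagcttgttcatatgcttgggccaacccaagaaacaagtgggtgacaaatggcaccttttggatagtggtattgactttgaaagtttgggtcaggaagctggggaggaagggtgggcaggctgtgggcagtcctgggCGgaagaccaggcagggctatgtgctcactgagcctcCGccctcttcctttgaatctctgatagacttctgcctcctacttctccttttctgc

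The ITGA2 sequence holds 26 CpG dinucleotides, the ITGAE sequence 6 and the ITGAM sequence 2, against a median of 11 over 35116 promoters. The GC content was 76.4%, 60.0% and 53.2%, against a median of 58.0%. The E-box CACCTG, searched on both strands of the 300 bases from 250 before to 50 after the start, was in 14.6% of the 41 promoters of members and in 20.6% of all promoters. It was in none of these 3. The promoters of CDH1, CDH3, CDH16, ITGAX and ITGB2 were not matched, so they were not searched.

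The other alpha subunits typical of leukocytes were under an FPKM of 1. ITGAM (CD11b, of complement receptor 3) had 87, 109 and 107 counts in Control against 62, 58 and 54 in CELF6-OE. ITGAX (CD11c, of complement receptor 4) had 104, 94 and 109 counts in Control against 60, 54 and 67 in CELF6-OE. For each of these genes the groups did not overlap. The log2 fold change was -0.73 for ITGAM (standard error 0.17) and -0.69 for ITGAX (standard error 0.17), with adjusted p of 0.0119 and 0.0162 in edgeR's quasi-likelihood test. The adjusted p of ITGAM was 0.0523 without CELF6-OE replicate 2 and 0.065 without Control replicate 2, and that of ITGAX was 0.0587 and 0.0755 without CELF6-OE replicates 1 and 2. ITGAL (CD11a, of LFA-1) had 17 to 21 counts in Control against 10 to 14 in CELF6-OE (log2 fold change -0.48, 95% interval -1.14 to 0.17).

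ITGB2 (CD18), the beta subunit shared by these alpha chains, had 58, 54 and 40 counts in Control against 29, 16 and 26 in CELF6-OE. No CELF6-OE library reached a Control library, and its log2 fold change was -1.02 (standard error 0.27, adjusted p = 0.0241 in edgeR's quasi-likelihood test). ITGB2 lies on the minus strand of chromosome 21 from 44885953 to 44931989. It was no longer called without CELF6-OE replicate 2 (-0.78) or Control replicate 2 (-0.97). The antisense gene ITGB2-AS1, which shares 303 exon bases with it, had 24, 24 and 30 counts in Control against 11, 12 and 15 in CELF6-OE. The libraries were directional, but whether the counting used the strand is not stated, so reads of this pair could not be assigned with certainty. SPI1, which encodes a transcription factor of myeloid cells, had between 0 and 3 counts per library.

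Among receptors of collagen, ITGA2 fell 1.51-fold, close to the fold change limit. Its FPKM was 4.50, 3.62 and 3.22 in Control against 2.14, 2.76 and 2.73 in CELF6-OE, without overlap. It lies on the plus strand of chromosome 5 from 52989340 to 53094779. Its log2 fold change was -0.60 (standard error 0.12, adjusted p = 0.00607 in edgeR's quasi-likelihood test), and it was -0.49 without CELF6-OE replicate 1 or Control replicate 1, where it was no longer called. With the library size alone or upper quartile scaling it was -0.56 and -0.58 and also not called. ITGA1 had 180, 144 and 98 counts in Control against 84, 79 and 102 in CELF6-OE. These overlapped, and its log2 fold change of -0.59 had an adjusted p of 0.0788. ITGA1 was called without CELF6-OE replicate 3 (-0.73) and without Control replicate 3 (-0.79), and it shares 499 exon bases with PELO on the same strand, so its counts are uncertain. ITGA10 and ITGA11 had 16 to 38 counts per library and log2 fold changes of 0.01 and -0.01, with standard errors of 0.26 and 0.31.

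The fibronectin receptor subunit ITGA5 fell 1.44-fold. Its FPKM was 20.18, 21.97 and 23.54 in Control against 14.44, 16.71 and 15.56 in CELF6-OE, and the groups did not overlap. On the log2 scale the value was -0.52 (standard error 0.084, adjusted p = 0.00157 in edgeR's quasi-likelihood test). Without Control replicate 1 it was -0.61, and ITGA5 was called. ITGAV, which pairs with several beta subunits to bind vitronectin and fibronectin, rose 1.33-fold. Its FPKM was 5.93, 4.82 and 3.66 in Control against 6.15, 7.05 and 6.26 in CELF6-OE. The groups did not overlap, but the highest Control library lay close to the lowest CELF6-OE library. With edgeR's quasi-likelihood test the adjusted p was 0.0463, and it exceeded 0.05 in 6 of 17 alternatives, among them without CELF6-OE replicate 1 (0.0972), CELF6-OE replicate 2 (0.174), CELF6-OE replicate 3 (0.0707) and Control replicate 2 (0.127).

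For the laminin receptors, ITGA3 fell 1.31-fold. Its FPKM was 123.1, 135.4 and 147.4 in Control against 100.1, 112.6 and 104.6 in CELF6-OE, without overlap. This gave a log2 fold change of -0.39 (standard error 0.085, adjusted p = 0.0099 in edgeR's quasi-likelihood test), and the adjusted p was 0.0565 without CELF6-OE replicate 1 and 0.0505 without Control replicate 2. ITGA6 had an FPKM of 9.04 ± 0.835 in CELF6-OE and 7.72 ± 0.994 in Control (log2 fold change 0.20) with an adjusted p of 0.147. ITGB4, its hemidesmosome partner, had 15.3 ± 0.745 and 17.4 ± 1.61 (log2 fold change -0.21) with an adjusted p of 0.11. ITGA7, known from muscle, had 20 to 38 counts per library.

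ITGB1 spanned 192.8 to 211.6 FPKM in CELF6-OE and 167.9 to 236.2 in Control, so the CELF6-OE libraries lay inside the Control range. The log2 fold change was -0.02 with a 95% interval of -0.23 to 0.18, and its sign turned without CELF6-OE replicate 1 (0.0088), without Control replicate 1 (0.070) and with the library size alone (0.012). ITGB5 had an FPKM of 67.28, 69.18 and 69.22 in Control against 58.71, 58.47 and 60.04 in CELF6-OE. The groups were narrow and apart, and its log2 fold change was -0.25 (standard error 0.060, adjusted p = 0.0173 in edgeR's quasi-likelihood test). Its adjusted p was 0.0737, 0.0825 and 0.108 without CELF6-OE replicate 1, CELF6-OE replicate 2 and Control replicate 2. ITGB3 and ITGB6 had 11 to 28 counts per library and log2 fold changes of 0.02 and -0.03. ITGB3 shares 2266 exon bases with another gene on the same strand, so its counts are uncertain.

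The remaining 14 members were not tested, and none had more than 15 counts in a library. They were CDH5, CDH7, CDH8, CDH9, CDH11, CDH12, CDH13, CDH19, CDH22, CDH26, ITGA4, ITGA8, ITGA9 and ITGB8. ITGA4, the alpha subunit of VLA-4 on leukocytes, had 1 to 6 counts per library. ITGA9 had 8 counts in CELF6-OE replicate 3 and 0 in the other libraries, and a count of 0 allows up to 3.

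Genes that act with integrins and cadherins were taken from 5 lists, of which 91 genes were in the table and 80 were tested. Of these, 8 were called (10%, against 7.27% of all genes), all 8 lower in CELF6-OE (5.91% of all genes), and 2 of the 8 were tested through Control alone. None was called up by edgeR's quasi-likelihood test, by DESeq2 or by limma-voom. In edgeR's test 13 of the 80 had an unadjusted p under 0.05 and a positive change, against 2340 of all 15847 genes tested. By adjusted p, 6 genes were higher (7.5%, against 6.47% of all genes) and 14 were lower (17.5%, against 11.5%). The 14 also include the 2 genes tested through Control alone, VCAM1 and ICAM2, so neither the 10% nor the 17.5% is read as a result. The median log2 fold change was -0.02, against 0.01 over all genes tested.

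Matrix ligands held 4 of the called genes among 25 tested (16%, against 7.27% of all genes). By adjusted p, 3 of the 25 rose (12%, against 6.47%) and 5 fell (20%, against 11.5%). Vitronectin (VTN), a ligand of ITGAV integrins, fell from an FPKM of 18.8 ± 0.753 to 6.35 ± 1.24 (log2 fold change -1.60, standard error 0.12). Fibronectin (FN1), the ligand of ITGA5 with ITGB1, had 14389, 11570 and 9720 counts in Control against 6433, 6106 and 6997 in CELF6-OE (log2 fold change -0.79). The basement membrane genes NPNT and NID1 had log2 fold changes of -0.77 and -0.60 and also fell. The matricellular genes CCN1 and CCN2 (CYR61 and CTGF in the table) and THBS1 rose by less than 1.5-fold, at 0.31, 0.48 and 0.47 (log2 fold change).

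Among 8 tested cell-surface ligands 3 were called. VCAM1, the ligand of VLA-4, had 41, 39 and 35 counts in Control against 6, 9 and 7 in CELF6-OE (log2 fold change -2.29). ICAM1, a ligand of ITGB2 integrins, had 377, 372 and 479 counts in Control against 97, 170 and 176 in CELF6-OE (log2 fold change -1.40). ICAM2 had 11 to 14 counts in Control against 1 to 7 in CELF6-OE. ICAM1 passed the low-count filter in libraries of each group and fell. VCAM1 and ICAM2 passed it in the 3 Control libraries and in no CELF6-OE library, so they were tested through the group where they are high, and no fall is read from their calls. The called share of this list was 37.5%, against 7.27% of all genes. As VCAM1 and ICAM2 are 2 of its 3 called genes, this share is not read as a result.

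Of 31 integrin activators and focal adhesion adaptors, NEDD9 was called, at a log2 fold change of -0.68 (3.23% of the list, against 7.27% of all genes). By adjusted p, 2 rose (6.45%, against 6.47%) and 4 fell (12.9%, against 11.5%), and the median log2 fold change was 0.01. Talin (TLN1) had 20.5 ± 0.621 FPKM in CELF6-OE and 20.1 ± 0.530 in Control. Among 10 tested catenins and cadherin regulators none was called in either direction, against 7.27% of all genes. Of the 10, 3 had an unadjusted p under 0.05, against 5188 of all 15847 genes tested. By adjusted p, 1 of them rose (10%, against 6.47% of all genes) and 1 fell (10%, against 11.5%). CTNNB1 (beta-catenin) had 32 ± 0.574 and 30.5 ± 2.54 FPKM, and CTNNA1 (alpha-catenin) 43.2 ± 1.89 and 42.2 ± 2.04. Plakoglobin (JUP), which also binds E-cadherin, fell from 35.8 ± 0.755 to 26.8 ± 3.19 FPKM (log2 fold change -0.45) with an adjusted p of 0.00504 in edgeR's quasi-likelihood test. PKP4, an armadillo protein related to p120-catenin, rose from 5.98 ± 0.549 to 7.22 ± 0.306 FPKM (log2 fold change 0.24) with an adjusted p of 0.0403 in the same test. Of 6 tested desmosome genes none had an adjusted p under 0.05, against 18.0% of all genes, and 1 had an unadjusted p under 0.05.

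**Figure D4:**
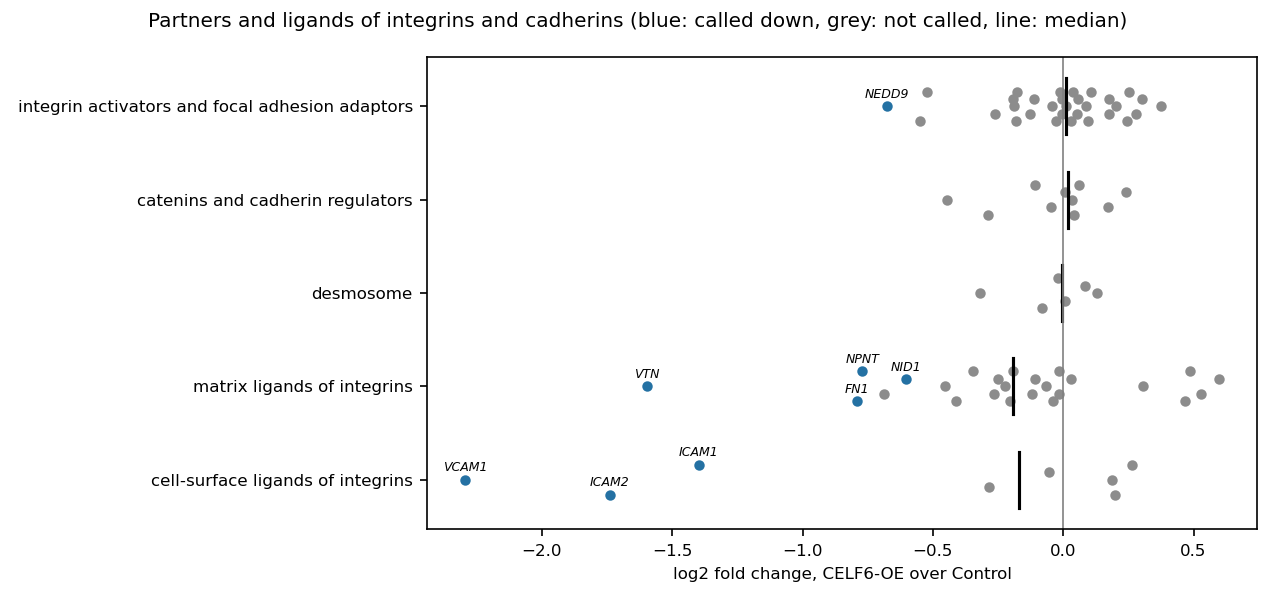
Log2 fold change of CELF6-OE over Control for the 80 tested genes of the 5 lists, 1 point per gene, with the list median as a black line. The called genes, in blue, all lie to the left at -0.60 to -2.29, and the medians lie between -0.19 and 0.02. VCAM1, at -2.29, and ICAM2 were tested through Control alone.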

How the data were processed

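RNA-seq of A549 cells with CELF6 over-expression or an empty plasmid was used, with 3 libraries per group named by the labels. The libraries were made with a stranded kit. According to the methods and labels, reads were trimmed with FASTX-Toolkit and aligned to GRCh38 with TopHat2, and uniquely located reads were counted per gene. Which tool counted them, with which strand setting and annotation, is not given in the sources used here. The authors deposited raw counts per gene and FPKM values. Total counts were 33748328 to 37920700 per library. No pair of replicates was a duplicate, with a chi-square per degree of freedom of 7.67 to 29.3 within groups. The 29.3 was for Control replicates 1 and 3, and every other pair within a group had at most 11.7.

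In edgeR 4.0.16 (R 4.3.3), genes were filtered with filterByExpr (minimum count 10), scaled by TMM and tested with the quasi-likelihood test over 15847 genes, with Benjamini-Hochberg adjustment and a prior count of 0.125. The prior degrees of freedom were 7.15, whereas without the filter they were infinite. Intervals of log2 fold changes are t intervals. FPKM served for levels between genes. DESeq2 1.42.0 and limma-voom (limma 3.58.1) were alternatives, together with other scalings, filters and thresholds, a replicate block and leaving out each library. The test was checked on simulated counts, where it recovered 99.0% of 200 genes changed 2-fold among 15688 genes tested and called 25 unchanged genes. The changed genes were drawn only from genes above a low mean level, and the spread of each gene was set by the trend over all genes. The recovered share therefore does not cover the members with low counts. All 46 members matched GENCODE v44 on the same chromosome. Promoters came from RefSeq. Protein sequences were not used here.

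The members and lists were chosen with earlier results of these data known. Named in full are ITGB1, ITGA3, CDH1 and CDH2, each member called or with an adjusted p under 0.05, the 5 members with the highest FPKM in each of the 3 families, the members under the filter, and the called genes of each list, at most the 4 with the smallest p per direction. Other members and list genes are named for completeness, chosen after their values were seen.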

Additional observations from a re-analysis of the deposited data

How the results depend on the processing

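Of the 8 called members, CDH1, CDH16, ITGAE, ITGAM and ITGAX were called under all 17 alternative fits, and CDH3 in 13 of 16, ITGB2 in 14 of 16 and ITGA2 in 13 of 17. Under the stricter filter CDH3 and ITGB2 were not tested. ITGA1 was also called without a filter and with the likelihood ratio test. At a fold change of at least 2 in place of 1.5, 0 members were called up and 4 down (CDH1, CDH16, CDH3 and ITGB2), with 65 and 480 of all genes and 4 of the partner genes. Those partner genes include VCAM1 and ICAM2, which were tested through Control alone. In edgeR's quasi-likelihood test 4 of the 32 tested members had an unadjusted p under 0.05 and a positive change, against 2340 of all 15847 genes tested. ITGAE stayed under a fold change of 2 with DESeq2 and limma-voom too. The stricter filter, at least 50 counts in 3 libraries, left 19 members to test, since fewer genes pass it.

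When each library was left out in turn, 1 to 2 members were called up, 5 to 8 down, and 6 to 15 had an adjusted p under 0.05, while 155 to 348 of all genes were called up. The 348 came without Control replicate 1, with a share of down calls of 73.3% against 81.2%. The second member called up was CDH4 without CELF6-OE replicate 3 and CDH6 without Control replicate 1. The log2 fold change of CDH2 ranged from -0.0098 (without Control replicate 3) to 0.14, and that of ITGB1 from -0.12 to 0.070, above 0 without CELF6-OE replicate 1 (0.0088), without Control replicate 1 (0.070) and with the library size alone (0.012). The cause was not tested.

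Deviations of same-numbered libraries from their group means correlated at -0.0113, -0.0212 and -0.0722. No pairing by replicate number was seen, but these values do not settle whether the libraries were paired. With the replicate number as a block, 1 member was called up and 7 down, the same 8 genes. In edgeR's quasi-likelihood test the adjusted p of ITGB5 was 0.0576 with the block and 0.0173 without it. That of ITGAV was 0.0188 with the block and 0.0463 without it. Scalings moved the median of all genes by less than 0.1 (log2). Tested members with a mean under 50 counts had standard errors of 0.23 to 0.44 (log2), which limits what could be detected at this depth.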

Other observations

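Of the 7 members called down, 5 lie on chromosome 16, a pattern noticed after the values were seen. They are CDH1, CDH3 and CDH16 on the long arm and ITGAM and ITGAX on the short arm. CDH3 ends 9823 bases before CDH1 starts, and ITGAM ends 22241 bases before ITGAX, each pair on the plus strand. Of the 7 tested members on chromosome 16, 71.4% were called down, against 8.0% of the 25 tested members on other chromosomes. Over all genes, 5.04% of 774 tested on chromosome 16 and 5.95% of 15073 elsewhere were called down.

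Among the 8 called members, CELF6-OE replicate 3, which had the lowest CELF6 count of its group, was the CELF6-OE library closest to the Control mean for 5, namely CDH1, CDH3, CDH16, ITGAE and ITGAX. Replicate 1 was closest for ITGAM and ITGB2 and replicate 2 for ITGA2. Over all genes tested, replicate 3 was also nearest to the Control libraries, so this is not particular to the members. Its chi-square per degree of freedom against them was 37.3 to 45, against 60.4 to 66.6 for replicate 1 and 70.9 to 75.3 for replicate 2. Between Control replicates 1 and 3 the value was 29.3. With 3 libraries the relation to the CELF6 count was not tested.

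Of the epithelial markers, KRT8, KRT18 and KRT19 fell by 0.47, 0.36 and 0.22 on the log2 scale with adjusted p of 0.00532, 0.021 and 0.0362 in edgeR's quasi-likelihood test. KRT7 had a log2 fold change of -0.09 and EPCAM of -0.41, with adjusted p of 0.577 and 0.24. ITGB1-DT lies on the other strand from ITGB1 and shares 401 exon bases with it. ITGB1-DT had 506, 448 and 454 counts in Control against 357, 305 and 333 in CELF6-OE (log2 fold change -0.43, adjusted p = 0.0188 in edgeR's quasi-likelihood test). As the strand setting of the counting is not stated, the counts of ITGB1-DT are uncertain.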
